A study of Mus musculus with 3 samples.

Results

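Neutrophils were examined in 3 single-cell 3′ RNA libraries of mouse dorsal skin, and 514 of the 16604 cells that passed quality filters were neutrophils by their marker genes. A cell counted as a neutrophil if it held at least 3 unique molecular identifiers (UMIs, each standing for 1 captured transcript) of S100a8 and S100a9 together and at least 1 UMI of at least 2 of the 6 genes Csf3r, Cxcr2, Retnlg, Mmp9, G0s2 and Il1r2. It also had to hold at most 2 UMIs of C1qa, C1qb and C1qc, which mark macrophages, none of Cd3e and Cd3d, which mark T cells, and fewer than 5 of Krt14 and Krt5, which mark keratinocytes. The members were thus chosen by the measured counts of these genes, whose levels, like the number of cells, are given as a description.

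Neutrophils are short-lived granulocytes that are made in the bone marrow, circulate in blood and enter tissue when it is injured or irradiated. Their granules are filled stepwise during development in the marrow, so mature cells in tissue carry granule proteins with little of the matching transcripts, while their cytokine, chemokine and receptor genes are transcribed on the spot. Chemokines such as Cxcl2 act on the receptor Cxcr2 and attract more neutrophils, interleukin-1β (Il1b) activates the surrounding cells, and prostaglandin E2, a product of cyclooxygenase-2 (Cox-2, gene Ptgs2), acts on neutrophils through cyclic AMP.

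To examine the immune cells of irradiated skin, the study compared wild-type mice that received no ultraviolet B (UVB) light (WT_Ctrl), wild-type mice exposed to UVB 3 times (WT_UV), and mice of the genotype RP exposed in the same way (RP_UV). RP stands for Rosa26-rtTA; Tre-Ptgs2, a pair of transgenes through which doxycycline turns on rat Ptgs2 in the whole animal rather than in 1 cell type. All mice were C57Bl/6 males of 8 weeks in telogen, the resting phase of the hair cycle, and their skin was digested and enriched for immune cells with CD45+ magnetic beads. Each group was 1 library, so no difference had a replicate check and no test was made, and the intervals given are 95% intervals that cover counting error only. By the sample IDs in the labels, WT_Ctrl and RP_UV shared a sequencing run and WT_UV came from another, so that run and group cannot be told apart when WT_UV is compared.

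The 6 markers S100a8, S100a9, Csf3r, Cxcr2, Retnlg and G0s2, which are rule genes and so high by choice, summed to 55113 CPM (counts per 1000000 UMIs of the cells summed) in the neutrophils of WT_Ctrl, 36211 CPM in WT_UV and 40795 CPM in RP_UV, against 19, 72.3 and 569 CPM in all other cells. Known neutrophil genes that the rule did not use were also found. Trem1 stood at 407, 658 and 511 CPM in the neutrophils and at 0, 1.18 and 9.82 CPM in the other cells. Slpi stood at 6052, 2188 and 1901 CPM against 1.05, 4.12 and 48.3 CPM. Ly6g, a surface marker of mouse neutrophils, was nearly absent from the libraries, with 1, 2 and 14 UMIs in all kept cells. Of 6 eosinophil markers, the granule genes Epx and Prg2 had no UMI in any library, and the 6 summed to 0, 41.8 and 19.4 CPM. Of 11 macrophage markers, 6 were detected in the neutrophils of WT_Ctrl, and all 11 in those of WT_UV and RP_UV, at a sum of 815, 1859 and 1866 CPM. The other cells held 14920, 14568 and 23367 CPM of them.

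Markers of other cells were found in part of the members. In RP_UV, 233 of 459 neutrophils held 1 or 2 UMIs of the C1q genes, as did 14 of 45 in WT_UV and 1 of 10 in WT_Ctrl. The class II genes, which present antigen and belong to macrophages and dendritic cells, took 0.5% or more of the UMIs in 25 members of RP_UV and in 2 of WT_UV. Those 25 cells had a median of 6372 UMIs against 1360 in the other members. They held neutrophil genes at lower levels than the other members of RP_UV, with S100a8 at 3082 against 16290 CPM, Cxcr2 at 239 against 1001 CPM, Clec4d at 325 against 2429 CPM and Il1b at 9037 against 28010 CPM. Summed over all members, class II genes stood at 640 CPM in WT_Ctrl, 5135 in WT_UV and 8596 in RP_UV. The other cells held 31422, 27802 and 6664 CPM of them. Dendritic cell markers stood at 0, 41.8 and 161 CPM against 450, 511 and 133 CPM. Monocyte markers stood at 58.2, 675 and 561 CPM against 839, 1287 and 707 CPM. In RP_UV, class II and dendritic cell markers were thus higher in members than in other cells. In WT_Ctrl, 1 member held all 20 of the T cell marker UMIs found there. No doublet caller was run, and whether such cells are pairs was not tested.

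Depth differed between the libraries, which held 34985549 UMIs in WT_Ctrl, 82722013 in WT_UV and 37689836 in RP_UV. The median neutrophil held 1266, 3279 and 1379 UMIs in the same order, and 637, 1206 and 658 genes. Each neutrophil was therefore thinned to 1000 UMIs for the levels below, which left 10, 44 and 407 cells and nearly the same number of genes per cell, at medians of 532, 532 and 539. Other cells thinned alike had 573, 590 and 611 genes. The mitochondrial share was low in neutrophils, at a median of 0.147%, 0.185% and 0.317% against 2.56%, 2.36% and 2.79% over all kept cells. The barcode lists of any pair of libraries shared between 8 and 11 barcodes, of which at most 2 belonged to neutrophils.

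Neutrophils were rare in unirradiated skin and most frequent in irradiated skin of the Cox-2 mice. They were 10 of 5309 cells in WT_Ctrl, or 0.188% (Wilson interval 0.102 to 0.346). They were 45 of 5225 cells in WT_UV, or 0.861% (0.644 to 1.15). They were 459 of 6070 cells in RP_UV, or 7.56% (6.92 to 8.25). The 3 intervals did not overlap, and the share in RP_UV was 8.78 times that in WT_UV (6.48 to 11.9) and 40.1 times that in WT_Ctrl of the same run (21.5 to 75), while WT_UV stood at 4.57 times WT_Ctrl (2.31 to 9.06).

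The order of the libraries was the same under every other way of counting, but the size of the gap was not. Among cells of at least 2000 UMIs, a depth that 1 of the 10 neutrophils of WT_Ctrl reached, the ratio of RP_UV to WT_UV was 3.33 (2.37 to 4.7). A stricter rule (at least 10 S100 UMIs, 3 of the 6 genes and no C1q) left 9, 25 and 161 neutrophils and a ratio of 5.54. Applied to cells of at least 1000 UMIs, each thinned to 1000, the rule gave 9.61. Thinning levels the UMIs per cell but not which cells reach that depth. Of the neutrophils, 52 of 459 in RP_UV and 1 of 45 in WT_UV held fewer than 1000 UMIs. Since cells were enriched with beads, these are shares of the enriched cells and not of the skin.

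**Figure D1:**
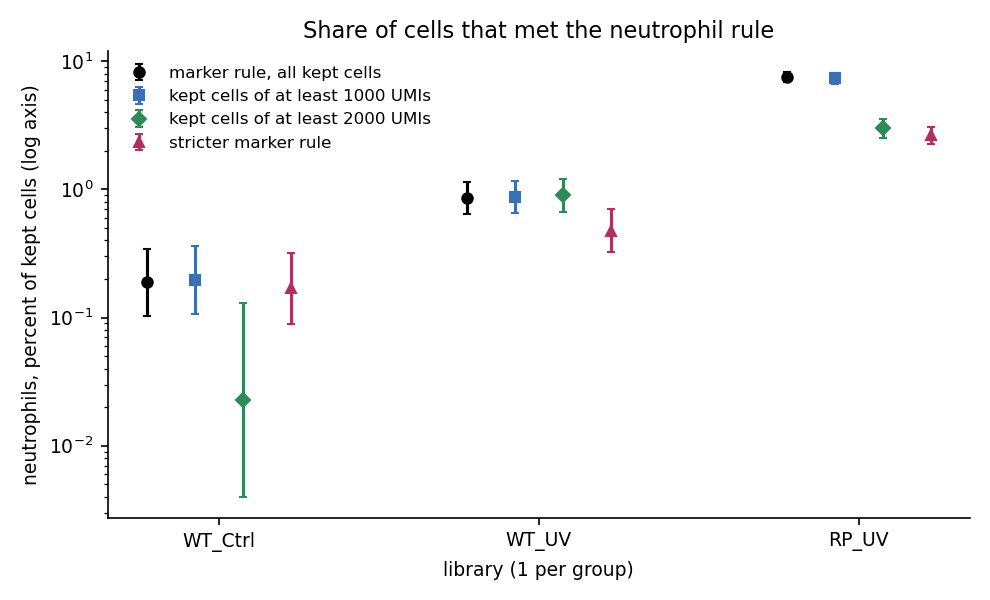
Neutrophils as a percent of kept cells (y axis, logarithmic) in the 3 libraries (x axis, 1 library each), with Wilson 95% intervals for counting error. Each symbol is 1 way of counting, and under all 4 shown WT_Ctrl lies lowest and RP_UV highest, from 0.188% to 7.56% under the marker rule.

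At the edge of the rule, 95 of the 459 neutrophils of RP_UV held exactly 2 of the 6 genes, against 2 of 45 in WT_UV and none of 10 in WT_Ctrl. Just outside it, 137 cells of RP_UV failed through C1q alone, with a median of 18 C1q UMIs, 35 S100 UMIs and 4550 UMIs in all. Only 6 cells of WT_UV and none of WT_Ctrl did so. Another 73 cells of RP_UV lacked only the S100 UMIs, and these held Il1b at 13812 CPM, against 24676 CPM in the neutrophils.

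Genes that the rule did not use also stood high in neutrophils. Of the genes outside the rule with at least 500 CPM, the 15 with the largest ratio of neutrophils to other cells in RP_UV, taken on CPM + 20, were Il1b, Ifitm1, Clec4e, Slpi, Hdc, Nlrp3, Bcl2a1b, Slc7a11, Srgn, Pglyrp1, Stfa2l1, Cstdc4, Cxcl2, Cd14 and Clec4d. They hold the interleukin-1β gene and the inflammasome sensor that matures its product (Nlrp3), the C-type lectin receptors Clec4d and Clec4e, and the protease inhibitor Slpi. Hdc makes histamine, Slc7a11 imports cystine, and Srgn is the proteoglycan core of granules. Stfa2l1 and Cstdc4 belong to a family of near-identical stefin genes, whose reads may be split between copies.

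Il1b was found in every thinned neutrophil of WT_Ctrl and WT_UV and in 404 of 407 of RP_UV. Unthinned, it stood at 9835 CPM in WT_Ctrl, 24202 CPM in WT_UV and 24676 CPM in RP_UV, which was 28.4, 36.7 and 32.7 times the level of the other cells. T cells, which should lack it, held an Il1b UMI in 6.29%, 16.3% and 32.4% of cells at the same 1000 UMIs in the same order. The median T cell held 2736, 7672 and 3234 UMIs before thinning. Whether these UMIs came from free RNA or from paired cells was not tested. For S100a8 the T cells with a UMI were 0 of 318 T cells in WT_Ctrl (which allows up to 0.943%), 1.15% in WT_UV and 16.9% in RP_UV, against 100%, 88.6% and 95.3% of neutrophils.

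The genes Il1b, Cxcl2, Ptgs2, Ccl3, Ccl4 and Nfkbia stood higher in UVB-exposed neutrophils of both genotypes than in the few neutrophils of unirradiated skin. Il1b, thinned, stood at 12700 CPM in WT_Ctrl (exact Poisson interval 10587 to 15111), 27295 CPM in WT_UV (25773 to 28884) and 28042 CPM in RP_UV (27530 to 28561). Cxcl2 stood at 4000 CPM (2858 to 5447), 18182 CPM (16944 to 19487) and 28037 CPM (27525 to 28556). The interval of WT_Ctrl lay below both UVB libraries for these genes. Ptgs2 stood at 700 CPM in WT_Ctrl (7 UMIs), 6568 CPM in WT_UV and 4305 CPM in RP_UV, and WT_UV was 9.38 times WT_Ctrl (4.5 to 23.5). The chemokine Ccl4 stood at 200 CPM (2 UMIs), 3068 and 2568 CPM, and Ccl3 at 0, 1205 and 1548 CPM. Nfkbia, which encodes the inhibitor of NF-κB and is itself an NF-κB target, stood at 2100, 6182 and 8946 CPM.

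Other genes stood lower in both UVB libraries. S100a9, a rule gene, stood at 37800 CPM in WT_Ctrl, 16273 CPM in WT_UV and 26280 CPM in RP_UV. Slpi stood at 6600, 2205 and 2405 CPM, and WT_Ctrl was 2.99 times WT_UV (2.16 to 4.14). Ccl6 stood at 3000, 1068 and 1194 CPM, and WT_Ctrl was 2.81 times WT_UV (1.72 to 4.53). G0s2, a rule gene that inhibits lipid breakdown, stood at 3300, 1182 and 1732 CPM. WT_Ctrl rested on 10 cells and 10 of 10 held Il1b, so its values describe those cells alone.

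**Figure D2:**
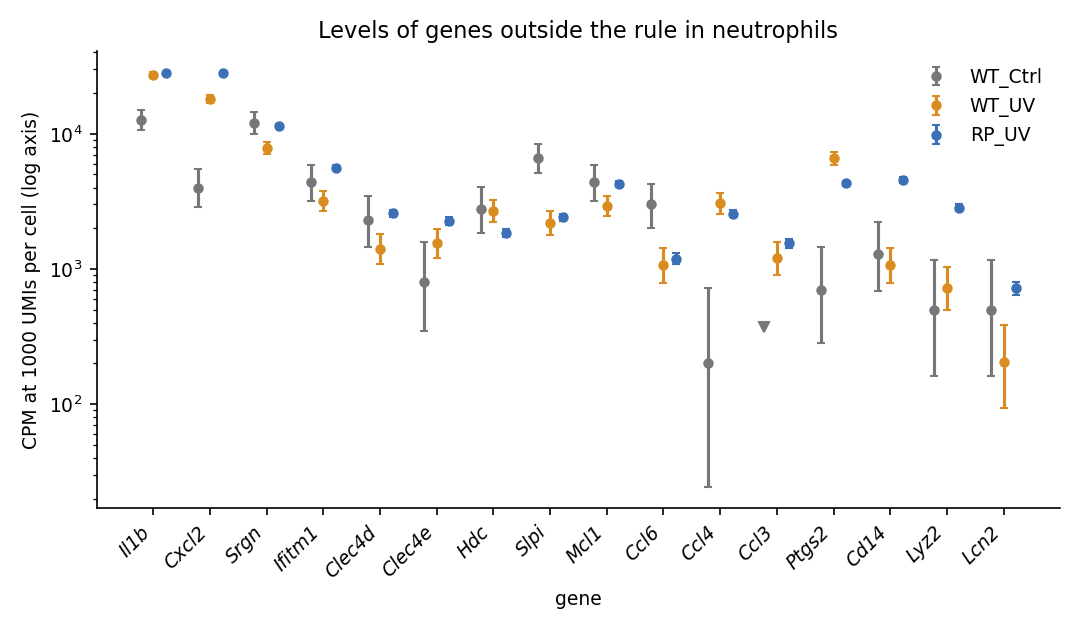
Levels of 16 genes outside the rule in neutrophils thinned to 1000 UMIs, in CPM on a logarithmic axis, with exact Poisson 95% intervals and 1 library per colour. The triangle is the upper limit for a gene with no UMI (Ccl3 in WT_Ctrl). Il1b, Cxcl2, Ptgs2 and Ccl4 lie lowest in WT_Ctrl, and Slpi and Ccl6 highest there.

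Between the UVB libraries, 761 genes had a mean of at least 200 CPM and were compared on the log2 scale of CPM + 20. Of these, 35 were at least 2-fold higher in RP_UV (4.6%) and 61 at least 2-fold lower (8.02%), or 12.6% in either direction, and the median over all 761 was -0.07. The counts depended on the draw of UMIs. A second draw called 30 genes higher and 49 lower, of which 13 and 31 were among those of the first, and the unthinned sums called 20 and 39, of which 14 and 30 were. The genes named below were past 2-fold with a counting interval that excluded 1 and the same direction unthinned, and single values at few UMIs are given with their UMIs.

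The receptor Cd14, which binds bacterial lipopolysaccharide for Toll-like receptor 4, was the gene with many UMIs that differed most upward. It stood at 1300 CPM in WT_Ctrl, 1068 CPM in WT_UV and 4550 CPM in RP_UV, and RP_UV was 4.26 times WT_UV (3.19 to 5.82). It was found in 72% of neutrophils of RP_UV (67.4 to 76.1) against 20.5% in WT_UV (11.2 to 34.5), and in 14.1% and 3.19% of T cells. Lysozyme (Lyz2) stood at 500, 727 and 2845 CPM, and RP_UV was 3.91 times WT_UV (2.76 to 5.75). Lyz2 was also found in 49.3% of T cells of RP_UV and 28.7% of WT_UV. In macrophages thinned alike, RP_UV over WT_UV was 1.31 for Cd14 and 1.3 for Lyz2.

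Bcl2a1b, a member of the anti-apoptotic A1 family, stood at 200 CPM in WT_Ctrl (2 UMIs), 1568 CPM in WT_UV and 4206 CPM in RP_UV, and RP_UV was 2.68 times WT_UV (2.11 to 3.46). Its near-identical copies Bcl2a1a and Bcl2a1d stood at 1.61 and 1.89 times, and reads could be split between the 3 copies. Lipocalin-2 (Lcn2), a granule protein that binds iron carriers, stood at 500, 205 and 720 CPM on 5, 9 and 293 UMIs, and RP_UV was 3.52 times WT_UV (1.83 to 7.77). Apoe, a lipid carrier made mainly by macrophages, was 3.74 times WT_UV (1.87 to 8.76), beside 2.09 times in macrophages. The peptidyl-prolyl isomerase Ppia was 2.87 times (1.78 to 4.98), Emp3 3.72 times (1.86 to 8.69) and S100a10 3.31 times (1.39 to 10.3).

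The remaining names rested on few UMIs of WT_UV. Jaml, a leukocyte adhesion molecule, had 7 of them, and the vesicle GTPase Arf1 and the phosphatase Ptpn1 had 5 each. Their log2 differences were 1.53, 1.51 and 1.48, against 0.79, 0.45 and 0.43 unthinned, and Ptpn1 was at -0.24 in a second draw. Myl12a, a myosin light chain, had the highest log2 difference, 2.67, on 2 UMIs of WT_UV, against 0.73 unthinned and -0.29 where the rule was applied to thinned cells.

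The genes with the lowest ratios had varied roles. Sap18, a subunit of the Sin3 corepressor complex, stood at 300 CPM in WT_Ctrl, 1250 CPM in WT_UV and 160 CPM in RP_UV, and WT_UV was 7.83 times RP_UV (5.36 to 11.4). Vps37b, of the ESCRT-I sorting complex, stood at 1200, 1500 and 243 CPM, and WT_UV was 6.17 times RP_UV (4.45 to 8.51). The splicing factor Cwc25 was 7.34 times (4.05 to 13.1), the scaffold Homer1 6.54 times (3.92 to 10.8), the nucleolar protein Nop53 6.47 times (3.52 to 11.7) and choline kinase (Chka) 5.78 times (3.13 to 10.4). Cdk11b, Ell2, Cdc42ep3 and Cpeb2 followed at 5.36, 4.85, 3.91 and 3.89 times. In macrophages the ratio of WT_UV to RP_UV was 1.26 for Sap18, 1.14 for Vps37b and 0.911 for Cwc25. Over the other settings, the log2 difference of RP_UV to WT_UV ran from -3.18 to -2.7 for Sap18 and from -2.84 to -2.06 for Vps37b, but from -1.77 to -0.3 for Cpeb2.

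**Figure D3:**
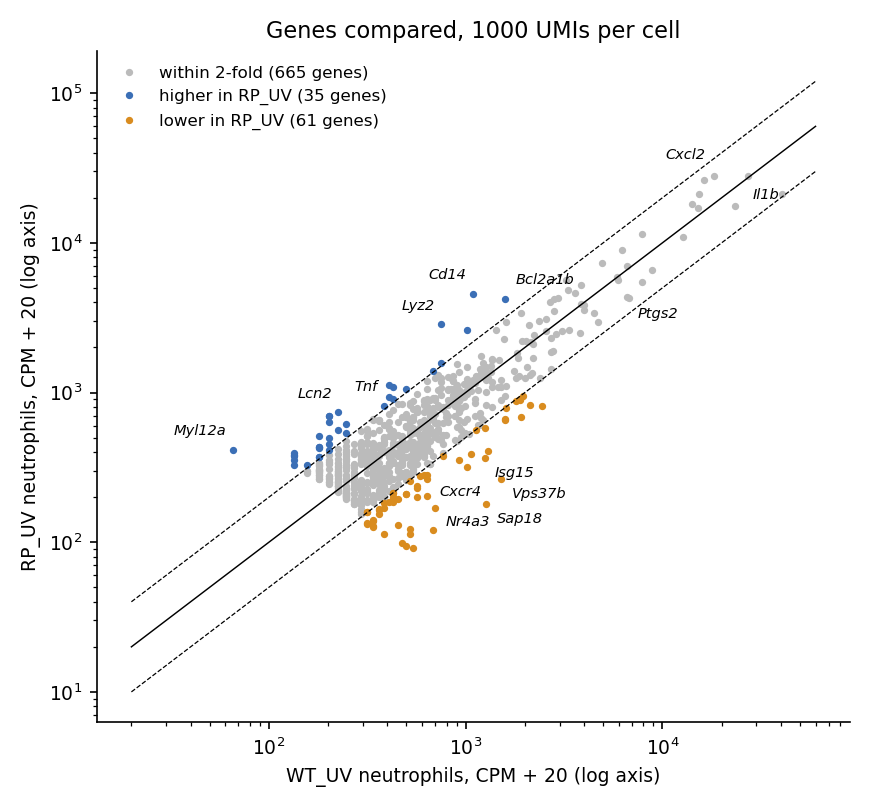
Level of each of the 761 genes compared in neutrophils of RP_UV (y axis) and WT_UV (x axis), thinned, as CPM + 20 on logarithmic axes. The solid line marks equal levels and the dashed lines 2-fold. 35 genes lie above the band and 61 below it, while Il1b, Cxcl2 and Ptgs2 lie inside.

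Over all 761 genes compared, 4.6% were past 2-fold upward and 8.02% downward, and each list below is set beside these shares. Chemokines stood mostly within 2-fold of each other in the UVB libraries. Of 12 listed, 6 could be compared and 1 was past 2-fold (Pf4, a macrophage and platelet chemokine, on 6 UMIs of WT_UV and 0.447 times unthinned), with a median log2 difference of 0.26, or -0.17 in a second draw. Cxcl2 was 1.54 times higher in RP_UV (1.44 to 1.66), and 3.13 times higher in macrophages (2.92 to 3.35). Ccl3 was at 1.29 times (0.97 to 1.73) and Ccl4 at 0.837 times (0.699 to 1.01), and both intervals held 1. Cxcl3, close kin of Cxcl2, had no UMI in the thinned neutrophils of WT_UV and 125 in RP_UV, at least 4.5-fold higher against a floor of 3 counts. Unthinned it was at 1 and 229 UMIs. Cxcl10, an interferon-inducible chemokine, stood at 45.5 CPM on 2 UMIs and at 351 CPM, or 7.73 times (2.1 to 64.4). Neither had a mean of 200 CPM.

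The sequence just before the Cxcl2 start is shown because this gene was among the most abundant transcripts of these cells and a motif of the NF-κB type, GGG and TTTCC parted by 2 bases of any kind on either strand, occurs there more than once. Of 32851 RefSeq promoters in the GRCm38.p6 build, 1.41% held this motif in the 250 bases before the start, and Cxcl2 held 2 matches, at -97 and -78. The window is chr5:90903649-90903898 on the plus strand, with the matches in capitals.
Cxcl2: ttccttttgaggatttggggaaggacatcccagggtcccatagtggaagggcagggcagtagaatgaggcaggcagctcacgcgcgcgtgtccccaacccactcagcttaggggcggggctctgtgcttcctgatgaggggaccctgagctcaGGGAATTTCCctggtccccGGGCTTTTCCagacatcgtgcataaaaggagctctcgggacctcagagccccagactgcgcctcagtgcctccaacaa

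Among cytokines, 5 of 15 could be compared and Tnf was past 2-fold, with a median of 0.38, or -0.21 at 2000 UMIs per cell. Among all 761 genes, 4.6% were past 2-fold upward and 8.02% downward. Tnf stood at 0 CPM in WT_Ctrl, 364 CPM in WT_UV (16 UMIs) and 794 CPM in RP_UV, and RP_UV was 2.18 times WT_UV (1.32 to 3.86), or 1.75 times unthinned. It was found in 43.5% of neutrophils of RP_UV and 29.5% of WT_UV, while T cells, which make Tnf themselves, held it in 12.7% and 14.3%. Il1b was level between the UVB libraries, at 1.03 times (0.968 to 1.09). Oncostatin M (Osm), a cytokine of the interleukin-6 family, had no UMI in WT_UV and 96 in RP_UV after thinning, at least 3.46-fold higher, and 3 against 251 unthinned. Il23a, a subunit of interleukin-23, had 0 and 88 UMIs, at least 3.17-fold higher, and 1 against 169 unthinned. In macrophages Osm was at 0.642 times (0.461 to 0.891). Genes with no UMI in thinned WT_UV neutrophils also included C1qb, a macrophage marker that the rule limits, with 76 UMIs in RP_UV, and Fabp4, with 95. Unthinned, C1qb had 4 and 128 UMIs, and Fabp4 had 0 and 257. Whether UMIs from other cells differed between the libraries was not tested.

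Of 32 receptors, 20 could be compared, with a median of 0.28. Of these, 2 were past 2-fold upward (Cd14 and Clec4n) and 2 downward (Csf3r and Cxcr4), beside 4.6% and 8.02% of all 761 genes. The count and the median include Csf3r, a gene that members were chosen by, and are given as a description. Clec4n (Dectin-2), a receptor for fungal mannan, was 2.15 times higher in RP_UV (1.5 to 3.16). Clec4d was at 1.83 times (1.42 to 2.4) and Clec4e at 1.46 times (1.14 to 1.9). The formyl peptide receptor Fpr1, which senses bacterial and mitochondrial peptides, had 0 and 112 UMIs, at least 4.04-fold higher. The G-CSF receptor Csf3r, a rule gene, was lower in RP_UV, and WT_UV was 2.46 times RP_UV (1.86 to 3.23). The chemokine receptor Cxcr4, which holds neutrophils in the marrow and marks aged ones, stood at 614 CPM in WT_UV and 184 CPM in RP_UV, a ratio of 3.33 (2.06 to 5.23), and in macrophages the ratio was 3.15. The rule genes Cxcr2 and Il1r2 were at 1.22 and 1.27 times in RP_UV.

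Granule genes of immature neutrophils were at or near 0. None of the 5 primary granule genes and none of the 9 genes of immature cells reached the level for comparison. Thinned neutrophils of RP_UV held 1 UMI of Mpo (myeloperoxidase), none of Elane (neutrophil elastase), 2 of Ltf (lactoferrin), 1 of Camp (cathelicidin) and none of Ngp, and those of WT_UV and WT_Ctrl held none of the 5. Of 8 secondary granule genes, Lcn2 and Lyz2 could be compared and both were higher in RP_UV. Chil3 had 0 UMIs in WT_UV and 88 in RP_UV. Of 7 tertiary granule genes 3 could be compared and none was past 2-fold. Among them, the rule gene Mmp9 (gelatinase) was at 0.828 times (0.597 to 1.18).

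Of 21 genes for prostaglandin synthesis, transport and receptors, only Ptgs2 could be compared. Whether transcripts of the rat transgene were counted as mouse Ptgs2 was not tested. Ptgs2 was lower in neutrophils of RP_UV than of WT_UV, and WT_UV was 1.53 times RP_UV (1.34 to 1.73) or 1.36 times unthinned, while in macrophages RP_UV was 2.43 times WT_UV (2.06 to 2.87). A Ptgs2 UMI was found in 75% of neutrophils in WT_UV (60.6 to 85.4) and 79.4% in RP_UV (75.2 to 83). T cells held one in 4.34% and 25.4%, and WT_Ctrl T cells in 0.314%. After thinning, the prostaglandin E2 receptors Ptger2 and Ptger4 had 4 and 3 UMIs in the 407 cells of RP_UV. They had none in the 44 cells of WT_UV or in WT_Ctrl, and the synthase Ptges had 1 in RP_UV. Unthinned, Ptger2 had 4 UMIs of 167297 in WT_UV and 7 of 927043 in RP_UV, and Ptger4 had 2 and 13. These counts are too few to compare the libraries. Of 8 leukotriene genes only Alox5ap, which hands arachidonic acid to 5-lipoxygenase, could be compared, at 1.24 times (0.947 to 1.64).

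Genes that cyclic AMP is known to induce were lower in RP_UV more often than higher. Of 16 listed, 8 could be compared, 4 were past 2-fold downward (Nr4a3, Fosl2, Rgs2 and Sik1) and 1 upward (Thbs1), where 8.02% and 4.6% of all 761 genes were, with a median of -0.71 against -0.07 over all genes. The orphan nuclear receptor Nr4a3 stood at 0 CPM in WT_Ctrl, 682 CPM in WT_UV and 150 CPM in RP_UV, and WT_UV was 4.55 times RP_UV (2.84 to 7.15), or 2.79 times unthinned. Rgs2, which dampens G-protein signalling, was 2.84 times higher in WT_UV (1.99 to 3.97), the kinase Sik1 2.52 times (1.48 to 4.13) and the AP-1 subunit Fosl2 2.08 times (1.58 to 2.7). In macrophages the same ratios were 2.32 for Nr4a3, 2.73 for Rgs2, 1.64 for Sik1 and 1.43 for Fosl2. The matrix glycoprotein Thbs1 was 2.1 times higher in RP_UV (1.44 to 3.16).

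The sequence just before the Rgs2 start is shown because Rgs2 was past 2-fold on this list and its window holds the core of the cyclic AMP response element, TGACGT, at -186 on the opposite strand, where it reads ACGTCA. The core was searched on both strands and is part of the longer, palindromic element, and 6.47% of the 32851 promoters held it. RefSeq promoters were found for 6 of the 8 compared genes, and 4 of the 6 held it (Dusp1, Nr4a3, Pde4b and Rgs2). Nr4a3 and Rgs2 were past 2-fold, and Dusp1 and Pde4b were not. The genes were listed because cyclic AMP is known to induce them, so a high share was built in. Whether the core bears on the difference between the libraries was not tested. Most of the window of Nr4a3 lies inside its RefSeq gene record. Pde4b has several promoters, of which the first listed was read. The Rgs2 window is chr1:144004150-144004399 on the minus strand, with the core in capitals.
Rgs2: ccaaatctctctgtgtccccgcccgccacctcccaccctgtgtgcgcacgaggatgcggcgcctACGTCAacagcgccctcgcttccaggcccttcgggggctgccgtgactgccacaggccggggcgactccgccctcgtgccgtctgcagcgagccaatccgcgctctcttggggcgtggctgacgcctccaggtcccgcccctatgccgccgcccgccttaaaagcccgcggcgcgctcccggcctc

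Immediate-early genes are induced within minutes of a stimulus and also by tissue digestion. Of 14, 11 could be compared, none was past 2-fold upward and 2 were downward (Fosb and Atf3), with a median of -0.39. Over all 761 genes the shares were 4.6% upward and 8.02% downward. Fosb stood at 2500, 2409 and 796 CPM, and WT_UV was 3.03 times RP_UV (2.41 to 3.78). Atf3 stood at 800, 1000 and 300 CPM, a ratio of 3.34 (2.31 to 4.74). Egr1 was 1.9 times higher in WT_UV (1.55 to 2.33), whereas in macrophages RP_UV was 2.95 times WT_UV (2.66 to 3.28).

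Of 17 NF-κB targets and feedback genes 11 could be compared, none was past 2-fold upward and Tnfaip2 and Birc3 were downward, with a median of 0.09. Beside this list and the next, 4.6% of all 761 genes were past 2-fold upward and 8.02% downward. Nfkbia was 1.45 times higher in RP_UV (1.28 to 1.64). Of 23 interferon genes 7 could be compared and Isg15, a ubiquitin-like protein, was past 2-fold. Isg15 stood at 900, 1227 and 344 CPM, and WT_UV was 3.57 times RP_UV (2.56 to 4.92), while in macrophages RP_UV was 2.07 times WT_UV (1.66 to 2.59). Ifitm1, an antiviral membrane protein, was instead 1.75 times higher in RP_UV (1.48 to 2.09) and Ifitm2 1.5 times (1.24 to 1.82).

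Survival genes had the median furthest above 0 among lists with at least 8 genes compared. Of 16, 9 could be compared, Bcl2a1b was past 2-fold upward and none downward, with a median of 0.64, and over all 761 genes 4.6% were past 2-fold upward and 8.02% downward. Reads could be split between Bcl2a1b and its near-identical copies Bcl2a1a and Bcl2a1d, so their values are not independent. Mcl1, on which neutrophil survival depends, stood at 4400, 2932 and 4238 CPM, and RP_UV was 1.45 times WT_UV (1.21 to 1.74). Pim1 was 1.52 times higher in WT_UV (1.29 to 1.8). Of 21 glycolysis and hypoxia genes 7 could be compared and Gapdh was past 2-fold, at 2.17 times (1.35 to 3.7) but 1.47 times unthinned. Of 7 genes of the oxidative burst 5 could be compared and none was past 2-fold. Of 19 matrix and repair genes 7 could be compared and Thbs1 was past 2-fold, and of 17 regulatory genes 11 could and the inhibitory receptor Pirb was 2.27 times higher in WT_UV (1.42 to 3.51).

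Single neutrophils of 1 library spread widely in most of these genes. At 1000 UMIs per cell, Il1b ran from 4 to 30 UMIs in WT_Ctrl with a median of 11, from 1 to 62 in WT_UV with a median of 27, and from 0 to 103 in RP_UV with a median of 27. Cxcl2 was at 0 in 12 of 44 cells of WT_UV and 38 of 407 of RP_UV, with medians of 13 and 21 and highest values of 74 and 140. Retnlg, a rule gene of mature blood neutrophils, was at 0 in 34 of 44 cells of WT_UV and 304 of 407 of RP_UV, while single cells reached 13 and 82 UMIs. Cd14 was at 0 in 35 of 44 cells of WT_UV and 114 of 407 of RP_UV.

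Across cells, which share a library and are not replicates, Spearman's rho of S100a8 and Retnlg was 0.4 over 44 cells of WT_UV and 0.5 over 407 of RP_UV. Il1b and Retnlg gave -0.43 and -0.29, and Il1b and Ptgs2 gave 0.46 and 0.44. S100a8 and Il1b gave -0.37 and -0.12, and S100a8 and Cxcl2 gave -0.14 and 0.04. Of the 9 pairs computed, S100a8 and Cxcl2 was the 1 whose sign differed between the libraries.

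**Figure D4:**
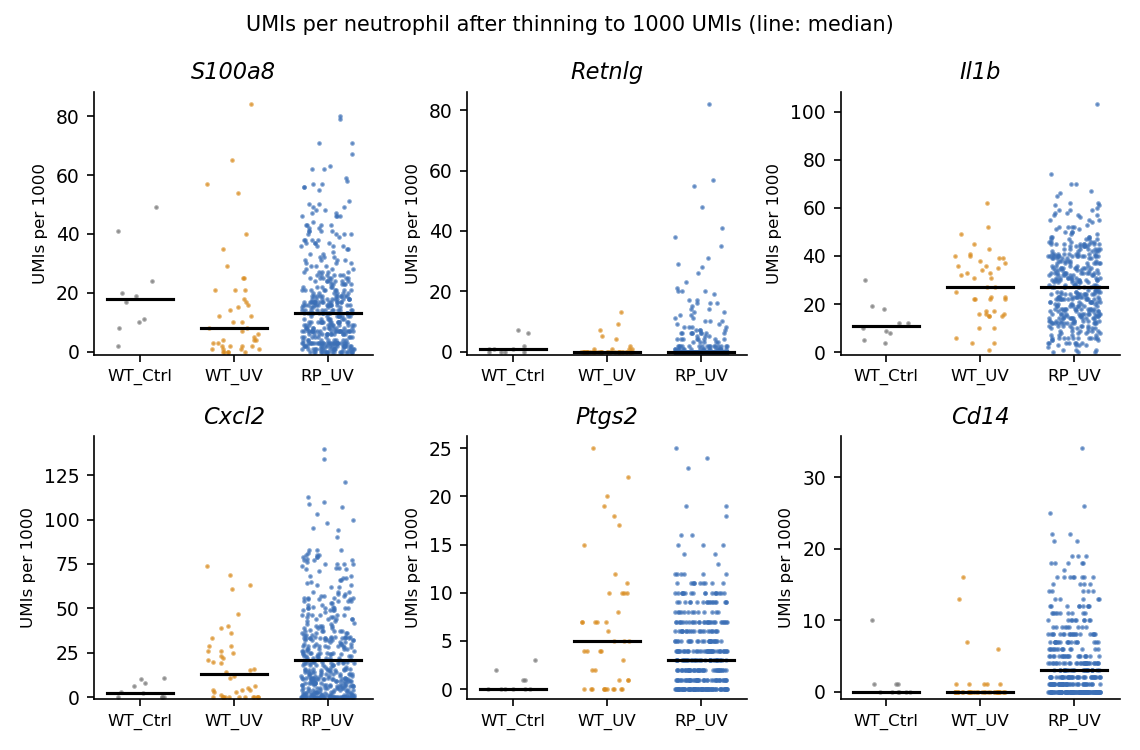
UMIs per neutrophil after thinning to 1000 UMIs for 6 genes, with 1 point per cell, the libraries on the x axis and a line at the median. Il1b has a median of 27 in both UVB libraries, and Cd14 has a median of 3 in RP_UV and 0 in WT_UV.

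Clustering of the 407 thinned neutrophils of RP_UV gave 3 subgroups, described here by their leading genes. Subgroup 1, with 172 cells (42.3%), was led by Spp1, the Bcl2a1 copies, Clec4n, Cdkn1a and Tnf, and held Il1b at 35390 CPM, Cxcl2 at 33320 CPM and Ptgs2 at 5587 CPM. Subgroup 2, with 135 cells (33.2%), was led by Retnlg, Lcn2, G0s2, Lrg1 and S100a9, and held S100a9 at 49519 CPM against 16279 in subgroup 1, Isg15 at 726 CPM, Lyz2 at 4911 CPM and Ptgs2 at 2726 CPM. Retnlg was at 7104 CPM in subgroup 2, 267 in subgroup 1 and 590 in subgroup 3. Retnlg and S100a9 are known as genes of mature neutrophils in blood.

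Subgroup 3, with 100 cells (24.6%), was led by the class II genes H2-Ab1, H2-Eb1, H2-Aa and Cd74 together with S100a4 and mitochondrial genes, which are not neutrophil genes, and it is therefore kept as a number. It had a median of 2344 UMIs before thinning against 1388 and 1397, and a mitochondrial share of 0.943% against 0.241% and 0.299%. It held Cxcr2 at 820 CPM against 977 and 1333, and macrophage markers at 2040 CPM against 1843 and 1837. Class II genes stood at 10560 CPM against 651 and 267, and fibroblast markers at 600 CPM against 163 and 59.3. S100a8, a rule gene, stood at 8860 CPM against 12541 and 28593. Without the 25 members of RP_UV and 2 of WT_UV richest in class II genes, the ratio of neutrophil shares, RP_UV to WT_UV, was 8.69. That left in most of the 100 cells of subgroup 3, and the ratio without the whole subgroup was not tested.

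Neutrophils of RP_UV held much of the RNA of several inflammatory genes in the whole library. They made up 0.0666% of all UMIs in WT_Ctrl, 0.259% in WT_UV and 3.18% in RP_UV. They held 51.8% of all Il1b UMIs in RP_UV (51.4 to 52.3), 8.7% in WT_UV and 1.86% in WT_Ctrl. For Cxcl2 these shares were 41.8%, 8.77% and 4.22%, and for Cd14 43.6%, 2.39% and 0.697%. Of Ptgs2 they held 26.8% in RP_UV (26.1 to 27.5), 12.3% in WT_UV (11.6 to 13) and 2.43% in WT_Ctrl. Of Tnf they held 30.8% and 1.16%, of Osm 28.3% and 0.156%, and of Il23a 52% and 1.08% in RP_UV and WT_UV. Trem1, a receptor that amplifies neutrophil activation, lay mostly in neutrophils in both, at 63.1% and 59.1%.

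These shares were lower under the stricter rule, which kept 161 of the 459 neutrophils of RP_UV and 25 of the 45 of WT_UV. Il1b was then at 19.3% in RP_UV and 4.27% in WT_UV, and Cxcl2 at 15.3% and 4.54%. Over all deposited barcodes, Ptgs2 was at 19.5% in RP_UV and 11.5% in WT_UV.

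**Figure D5:**
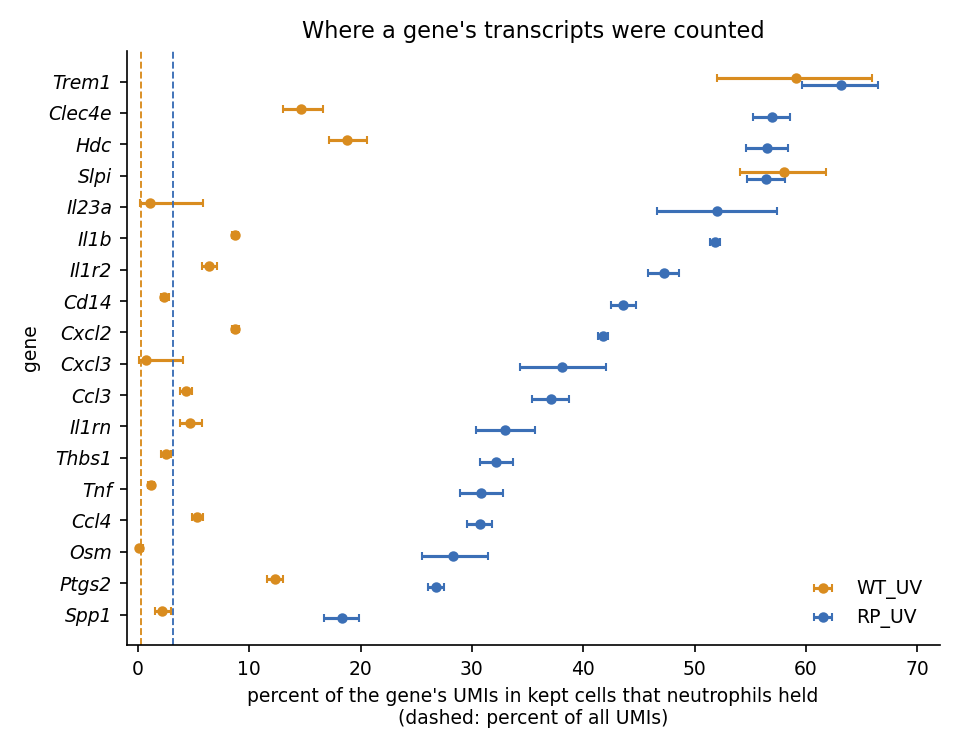
Percent of each gene's UMIs in kept cells that lay in neutrophils (x axis) for 18 genes (y axis) in WT_UV and RP_UV, with Wilson 95% intervals, and dashed lines at the percent of all UMIs that neutrophils held. Every gene but Slpi lies further right in RP_UV, and in that library all lie beyond the 3.18% line.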

How the data were processed

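From the 3 libraries the authors deposited UMI counts, raw and not normalized, for 32285 genes in called cells (Cell Ranger 6.1.1, mm10). The filters were those in the study's methods: cells with 10% or more mitochondrial UMIs were dropped, as were those with 200 genes or fewer and those with 4000 or more (6000 in WT_UV). Kept cells had medians of 4246, 10557 and 3774 UMIs in WT_Ctrl, WT_UV and RP_UV. Members were thinned without replacement to 1000 UMIs with a fixed seed, summed per library and scaled to CPM. Folds are ratios of CPM, with exact conditional binomial intervals. log2 differences use CPM + 20. A floor is 3 counts. Macrophages held at least 10 C1q UMIs (2327 cells in WT_UV, 2432 in RP_UV) and T cells at least 2 of Cd3e and Cd3d. Fibroblasts, planned as the class that lacks these genes, numbered 8 in WT_UV, so T cells were added after the data had been seen.

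The 12 genes with the highest and lowest differences were named, leaving out rule, mitochondrial, ribosomal, predicted and erythroid genes, together with listed genes. Members and lists were chosen with earlier results of these data known. Neutrophils of RP_UV were clustered with Leiden (leidenalg 0.10.2, resolution 0.5) on 15 components of 1000 variable genes with scanpy 1.11.5. Counting intervals and fold calls were tested on counts simulated from the mean levels of RP_UV neutrophils. The simulated cells did not vary beyond counting, so the intervals were not checked against variation between cells. No sample was left out. Alternatives were depth, draw, member rule, filters and pseudocount. Promoters came from RefSeq on GRCm38.p6, the mm10 assembly. 1 gene of the lists is not reported here.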

Additional observations from a re-analysis of the deposited data

How the results depend on the processing

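Each group had 1 library, so no library could be left out, and no test was made. No paired analysis was possible because each group held 1 library and replicate numbers only named it. Of the ratios of neutrophil shares, those that left their counting interval were 3.33 for RP_UV over WT_UV, 39.4 for WT_UV over WT_Ctrl and 131 for RP_UV over WT_Ctrl among cells of at least 2000 UMIs (1 neutrophil in WT_Ctrl), and 5.54 and 15.6 for RP_UV over WT_UV and over WT_Ctrl under the stricter rule. Each stayed above 1. The 35 genes higher in RP_UV became 53 at 500 UMIs per cell, 20 unthinned, 58 under the stricter rule, 12 at a mean of at least 500 CPM, 866 with no filter beyond 1 UMI and 21 with a pseudocount of 100 CPM. The 61 genes lower became 39 unthinned, 20 at 500 CPM, 784 with no filter and 30 with a pseudocount of 100 CPM. Of the named genes, Myl12a turned to -0.29 where the rule was applied to thinned counts and Ptpn1 to -0.24 in another draw, and the other 22 kept their direction in all settings. The 3 subgroups became 6 at a Leiden resolution of 1. Of 156 list medians under other settings, 6 left their counting interval, for chemokines (-0.17 in another draw), cytokines (-0.21 at 2000 UMIs), the cyclic AMP list (-1.22 at 2000 UMIs) and the prostaglandin list, which was Ptgs2 alone (-0.36 at 500 UMIs, -0.28 with the rule on thinned counts and -0.1 under the stricter rule). Leaving out members rich in class II genes was added after the data had been seen. It moved no neutrophil share of a library out of its counting interval. It called 41 genes higher and 65 lower, of which 18 and 41 were among those reported. Depth limited genes under 200 CPM in WT_UV, where 1 UMI of the 44 cells stood for 22.7 CPM.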

Other observations

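Barcodes that the quality filters had removed also met the neutrophil markers, at 0 of 668 in WT_Ctrl (which allows up to 0.449%), 2 of 924 in WT_UV (0.216%) and 11 of 1170 in RP_UV (0.94%, interval 0.526 to 1.68), and 9 of these 11 had a mitochondrial share of 10% or more.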
